A study of Rattus norvegicus with 6 samples.

Results

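The mitochondrial ribosomal proteins are encoded by nuclear genes named Mrpl for the large subunit and Mrps for the small subunit. Their members here were all protein-coding rows of the expression table whose symbol begins with Mrpl or Mrps followed by a number, which gave 75 of 33350 rows. These 75 rows carried 73 symbols, 44 of the large and 29 of the small subunit, because Mrpl36 and Mrpl53 each had 2 gene models. One model of each of these pairs was listed at 0 in every library. The other 73 rows passed the filter on low values, a mean of at least 1 FPKM over the 6 libraries. Genes spelled mrpl9, mrpl11 and mrpl24 in lower case fell outside the rule and are given separately, as are subunits with other kinds of name.

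The mitochondrial ribosome sits in the mitochondrial matrix and translates the few messenger RNAs of the mitochondrial genome, which encode core subunits of the respiratory chain complexes and of the ATP synthase. Its ribosomal RNAs are transcribed from mitochondrial DNA, whereas each of its proteins is made in the cytosol and imported. Some of these proteins have a bacterial homologue and others are particular to mitochondria, so that the particle is rich in protein compared with a bacterial ribosome. Their genes are expressed in nearly all cell types. The factors NRF1, GABP (an ETS family protein), YY1 and the oestrogen-related receptors are known regulators of nuclear genes for mitochondrial proteins.

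RNA was sequenced from rat cells labelled PC12, a line from an adrenal pheochromocytoma, in 6 libraries. The 3 EC libraries came from cells given exosomes of control endothelial cells. The 3 EN libraries came from cells given exosomes of endothelial cells with high expression of NTN1, the secreted guidance protein netrin-1. Exosomes are small vesicles released by cells, and both groups received them, so a group without exosomes was not analysed here. The sources used here give no dose, no time of treatment and no origin of the endothelial cells. The labels do not say that the 3 libraries of a group were separate cultures, so the p-values below measure only the spread between these libraries, which may be technical.

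Each library held 15296193 to 19626012 reads, and every EN library was deeper than every EC library. Reads of the mitochondrial genome made up 5.43%, 6.09% and 6.08% of the EC libraries and 4.40%, 4.71% and 5.50% of the EN libraries. The labelled cell type was checked against 13 markers of chromaffin cells, of which Th (1.09 to 1.72 FPKM) and Slc18a2 (3.71 to 5.30 FPKM) had a mean of at least 1 FPKM. Of the others, Dbh reached at most 0.268 FPKM and Pnmt and Hand2 were listed at 0 in every library. The 10 Schwann cell and glial markers were all above the filter, with Sox10 at 96.6 to 114 FPKM. The chromaffin markers thus go against the label in all 6 libraries, and PC12 is used below only as the labels' name for the cells. The 10 Schwann cell and glial markers summed to 474 to 484 FPKM in EC and 419 to 452 FPKM in EN. Among them Ngfr was higher in EN, S100b, Egr2 and Pmp22 were lower, and the part of this difference in the results below was not tested. Fibroblast and endothelial markers summed to 72.4 to 77.5 FPKM and 3.01 to 3.62 FPKM, with overlapping groups. Only 3 of the 8 fibroblast markers and 2 of the 7 endothelial markers found had a mean of at least 1 FPKM.

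In EN, 11 of the 73 mitochondrial ribosomal protein transcripts tested rose and 4 fell, while 58 did not pass the test. The transcripts that rose were those of the large-subunit genes Mrpl28, Mrpl2, Mrpl43, Mrpl23, Mrpl54, Mrpl41, Mrpl38 and Mrpl12 and of the small-subunit genes Mrps26, Mrps34 and Mrps12. Those that fell were Mrpl39, Mrpl32, Mrps14 and Mrps6. The differences were small: 69 of 73 mean levels differed by less than 1.5-fold, and the largest among the 15 that passed was 1.64-fold, for Mrps26. In bulk RNA, fewer cells of a type and less RNA per cell cannot be told apart. The test was limma on log2(FPKM + 1), two-sided, with the Benjamini-Hochberg adjusted p under 0.05 over all 12198 genes that passed the filter. A fold is the ratio of mean FPKM, and a log2 change is EN minus EC with 1 added to each FPKM, so that low genes appear to change less than they do.

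Over all genes tested, 1754 of 12198 passed (14.4%), 883 higher (7.24%) and 871 lower (7.14%), and the median log2 change was -0.003. Among the 44 large-subunit transcripts, 8 (18.2%) were higher and 2 (4.55%) lower, with a median log2 change of 0.10 and quartiles of -0.03 and 0.24. Of these 44, 30 had a positive change. Among the 29 small-subunit transcripts, 3 (10.3%) were higher and 2 (6.90%) lower, with a median of 0.03 and quartiles of -0.10 and 0.12. Here 19 of 29 had a positive change. The difference between the subunits was not tested.

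**Figure D1:**
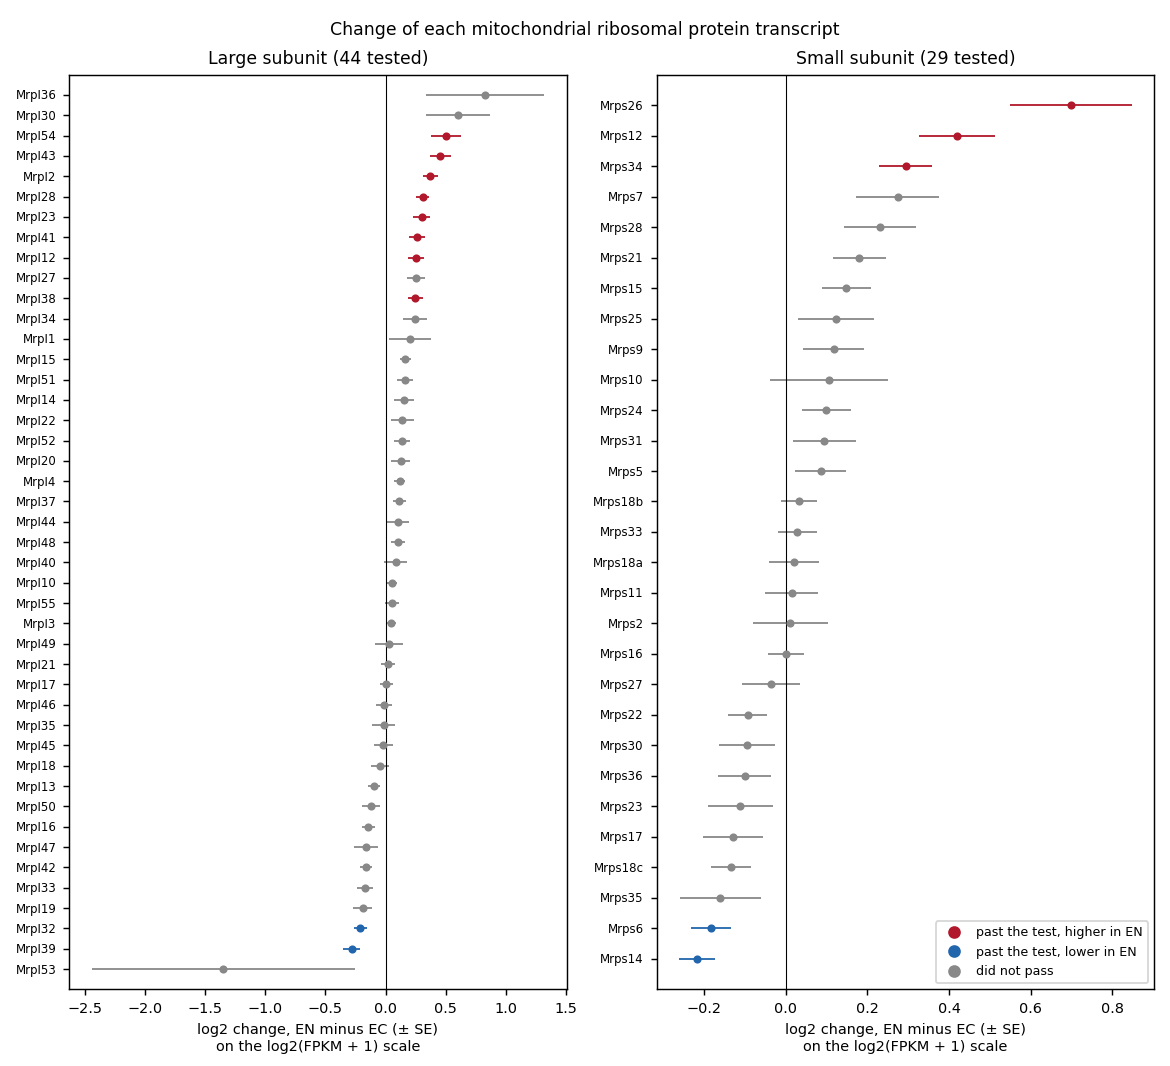
Log2 change of each of the 73 transcripts, EN minus EC on the log2(FPKM + 1) scale, with its standard error, for the large subunit (left) and the small subunit (right, on a narrower axis). Red and blue mark the 11 higher and 4 lower transcripts, and the widest error bars belong to the low genes Mrpl53, Mrpl36 and Mrpl30.

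A transcript can also be described by whether its 3 EN values all lie above or all below its 3 EC values. All 3 EN values lay above in 14 of 44 large-subunit transcripts (31.8%) and 4 of 29 small-subunit transcripts (13.8%), against 18.6% of all genes tested. All 3 lay below in 5 (11.4%) and 3 (10.3%), against 19.4% of all genes tested. The 15 transcripts past the test are among these 26. An unadjusted p under 0.05 was found for 29 of 73 members, against 3938 of all 12198 genes tested (32.3%). Of these members 14 did not pass after adjustment, among them Mrpl15 (log2 change 0.16, adjusted p = 0.059) and Mrpl42 (-0.16, adjusted p = 0.072), by limma with Benjamini-Hochberg adjustment.

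The transcripts differed more among themselves than between the groups. Mean levels over the 6 libraries ran from 1.43 to 297 FPKM, a length-scaled unit, with a median of 23.8 FPKM, and 55 of 73 lay between 10 and 50 FPKM. The most abundant was Mrpl33, a small protein with a bacterial homologue, at 291, 332 and 321 FPKM in EC and 290, 288 and 259 FPKM in EN. Its EN values lay just below its EC values and the change did not pass (log2 change -0.17, adjusted p = 0.12 by limma with Benjamini-Hochberg adjustment). Its gene model is also the shortest of the 73 tested, at 236 bases, which bears on any level scaled to length. Mrpl17 (mean 82.0 FPKM) and Mrpl13 (65.7 FPKM) followed in the large subunit, and their log2 changes of 0.01 and -0.09 did not pass. In the small subunit the highest were Mrps6 (89.4 FPKM), Mrps33 (45.0 FPKM) and Mrps12 (37.3 FPKM), and Mrps33 did not pass (log2 change 0.03).

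At the low end of the large subunit were Mrpl36 (1.43 FPKM), Mrpl1 (2.95 FPKM) and Mrpl30 (3.003 FPKM). Mrpl36 rests on 1, 7 and 1 reads in EC and 24, 5 and 5 reads in EN, so that its log2 change of 0.83 ± 0.49 (SE) did not pass. Mrpl1, a protein of the stalk beside the exit site for transfer RNA, rests on 32 to 71 reads and had a log2 change of 0.20, which did not pass. Mrpl30 was at 1.39, 3.91 and 1.55 FPKM in EC and 3.43, 3.82 and 3.91 FPKM in EN. One EC library thus lay among the EN libraries (log2 change 0.60, not past the test), and the gene overlaps Mitd1 on the opposite strand. Mrpl53 stood apart in 1 library, with 162 reads (29.8 FPKM) in EC replicate 2 against 1 to 14 reads (0.168 to 2.22 FPKM) in the other 5. Its log2 change was -1.35 ± 1.09 (SE) with that library and 0.02 without it, and it passed in neither fit.

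The lowest small-subunit transcripts were higher than these: Mrps35 (7.68 FPKM), Mrps28 (8.64 FPKM) and Mrps36 (9.90 FPKM). None of these 3 passed the test. The protein of Mrps36 is also known as a component of the 2-oxoglutarate dehydrogenase complex. Proteins of 2 genes with a small-subunit name, Mrps30 and Mrps18a, are known to sit in the large subunit. Counted with it, the large subunit had 8 of 46 higher and 2 lower, and the small subunit 3 of 27 higher and 2 lower.

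**Figure D2:**
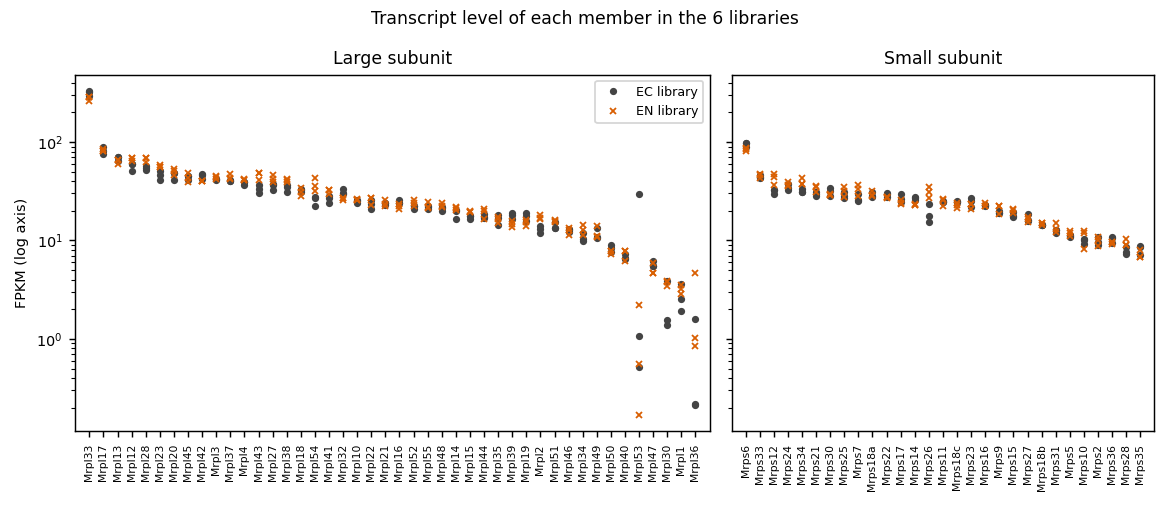
FPKM of each tested transcript in the 6 libraries on a log axis, ordered by mean level, EC as dots and EN as crosses. Most transcripts sit between 10 and 50 FPKM with the groups close together, and Mrpl53, Mrpl30 and Mrpl36 show the widest spread.

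Promoter windows of 250 bases before to 50 bases after the start of the gene were taken from RefSeq (assembly GRCr8, which is not the build of the expression table). Of the 73 tested members 58 matched by symbol, with 60 windows, and 11 of the 15 past the test. The windows were searched on both strands for CGCANGCG (core of the NRF1 site), CCGGAAG (ETS, as bound by GABP), AAGATGGC (YY1), AAGGTCA (oestrogen-related receptors) and GGGCGG (the GC box of SP1). The 4 windows below are those of the 2 higher and the 2 lower members that held the most kinds of these motifs, a choice made after the windows were seen. For the second lower member Mrps14 and Mrps6 were tied with 1 kind each, and Mrps14 was taken for its larger number of matches. They show what a match looks like in a transcript of each direction, with each match in capitals. The order is Mrps26 (chr3:138222074-138222373, plus strand), Mrpl23 (chr1:207116680-207116979, plus strand), Mrpl32 (chr17:55260401-55260700, plus strand) and Mrps14 (chr13:74962347-74962646, plus strand).
Mrps26: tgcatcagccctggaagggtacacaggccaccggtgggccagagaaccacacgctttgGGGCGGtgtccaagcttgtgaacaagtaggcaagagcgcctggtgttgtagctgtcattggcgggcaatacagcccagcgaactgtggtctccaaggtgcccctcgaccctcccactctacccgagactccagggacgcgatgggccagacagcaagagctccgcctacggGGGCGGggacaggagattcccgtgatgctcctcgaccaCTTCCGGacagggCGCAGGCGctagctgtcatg
Mrpl23: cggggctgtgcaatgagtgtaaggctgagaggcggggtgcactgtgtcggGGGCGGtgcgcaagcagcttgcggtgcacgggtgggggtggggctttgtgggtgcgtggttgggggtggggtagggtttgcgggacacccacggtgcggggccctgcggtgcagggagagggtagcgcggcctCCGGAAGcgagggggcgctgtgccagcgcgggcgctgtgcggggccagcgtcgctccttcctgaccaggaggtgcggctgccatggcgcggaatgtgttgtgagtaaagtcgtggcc
Mrpl32: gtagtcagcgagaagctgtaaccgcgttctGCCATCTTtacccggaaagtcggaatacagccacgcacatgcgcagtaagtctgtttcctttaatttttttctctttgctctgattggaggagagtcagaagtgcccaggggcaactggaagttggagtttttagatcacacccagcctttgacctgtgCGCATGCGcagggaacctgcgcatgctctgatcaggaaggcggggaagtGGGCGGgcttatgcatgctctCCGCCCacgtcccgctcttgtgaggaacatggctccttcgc
Mrps14: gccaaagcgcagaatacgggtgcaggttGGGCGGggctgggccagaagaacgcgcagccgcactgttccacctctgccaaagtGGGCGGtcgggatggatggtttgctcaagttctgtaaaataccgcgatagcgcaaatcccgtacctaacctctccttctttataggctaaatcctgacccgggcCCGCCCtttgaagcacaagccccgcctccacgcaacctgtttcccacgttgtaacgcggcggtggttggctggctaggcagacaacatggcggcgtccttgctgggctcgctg

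In the Mrps26 window the capitals mark, in order, a GC box, a second GC box, the ETS letters on the opposite strand and the NRF1 core, the last 2 lying after the start. Mrpl23 held a GC box and the ETS letters. The Mrpl32 window held the YY1 letters on the opposite strand, the NRF1 core and 2 GC boxes, and that of Mrps14 held 3 GC boxes and none of the other motifs. The window of Mrps6 held the YY1 letters alone. The windows of Mrpl28 and Mrpl54, which were higher, and of Mrpl39, which was lower, held none of the 5 motifs.

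Among the 60 windows of members, the YY1 letters stood in 15 (25%), against 5.85% of the 8851 windows of genes tested and 3.17% of all 33469 windows. Of these 15 matches 11 (73.3%) began after the start of the gene, against 51.6% of the matches in windows of genes tested. The ETS letters stood in 19 (31.7%), against 18.6% and 8.75%, and the NRF1 core in 15 (25%), against 17.7% and 7.6%. The oestrogen-related receptor letters stood in 3 (5%), against 2.73% and 4.61%. The GC box stood in 29 (48.3%), below the 63.6% of windows of genes tested and above the 33.1% of all windows. None of these differences was tested. Member windows had a median of 55.7% G and C, against 61.3% for genes tested. Of the 3 motifs for NRF1, ETS and YY1, at least 1 stood in 37 of 60 member windows (61.7%), against 35.6% of windows of genes tested. It stood in 2 of 7 windows of higher members and in 2 of 4 windows of lower members, against 34.1% for all higher and 32% for all lower genes. These are counts of letters, with no measure of binding.

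Among large-subunit transcripts that rose, 4 have a bacterial homologue. Mrpl28 (chr10:15495684-15498295 on Rnor_6.0, plus strand) had the smallest adjusted p of all members. It was at 56.7, 54.1 and 51.5 FPKM in EC and 69.4, 68.9 and 63.3 FPKM in EN. Its lowest EN library lay clear of its highest EC library. The level was 1.24-fold higher in EN, with a log2 change of 0.31 ± 0.05 (SE) and an adjusted p of 0.017 by limma with Benjamini-Hochberg adjustment.

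Mrpl2 (chr9:16643619-16647458, minus strand) encodes a protein close to the catalytic centre that forms peptide bonds. It was at 12.03, 14.0 and 13.1 FPKM in EC and 18.0, 16.5 and 17.1 FPKM in EN, with no overlap. The level was 1.32-fold higher, with a log2 change of 0.37 ± 0.07 (SE) and an adjusted p of 0.018 by limma with Benjamini-Hochberg adjustment. Mrpl23 (chr1:215701544-215709313, plus strand) encodes a protein at the exit of the tunnel for the nascent chain. It was at 50.3, 41.3 and 46.0 FPKM in EC and 58.6, 55.9 and 55.2 FPKM in EN. The 3 EN libraries were close together and above all 3 EC libraries, of which replicate 2 was the lowest. The level was 1.23-fold higher (log2 change 0.30, adjusted p = 0.037, limma with Benjamini-Hochberg adjustment).

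Mrpl12 (chr10:109658032-109662535, plus strand) encodes the stalk protein that meets elongation factors. It was the deepest of the higher members, with 1286 to 2157 reads. It was at 59.9, 59.4 and 51.1 FPKM in EC and 69.4, 69.3 and 64.7 FPKM in EN. EC replicate 3 was the lowest and the groups did not overlap. Its 1.19-fold difference lay just under the threshold (log2 change 0.26, adjusted p = 0.0498, limma with Benjamini-Hochberg adjustment).

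The other 4 large-subunit transcripts that rose encode proteins particular to mitochondria. Mrpl54 (chr7:11321057-11323577, plus strand) was at 27.4, 27.2 and 22.6 FPKM in EC and 43.6, 31.6 and 36.0 FPKM in EN. The EN libraries spread more widely than the EC libraries but did not reach them. Of the large-subunit transcripts that passed it had the largest ratio, 1.44-fold (log2 change 0.50 ± 0.12 SE, adjusted p = 0.041, limma with Benjamini-Hochberg adjustment). Mrpl43 (chr1:264755538-264756546, minus strand) was at 36.3, 33.0 and 30.2 FPKM in EC and 48.3, 48.0 and 41.3 FPKM in EN. The lowest EN library lay 5 FPKM above the highest EC library. The level was 1.38-fold higher (log2 change 0.46 ± 0.09 SE, adjusted p = 0.020, limma with Benjamini-Hochberg adjustment). Its model overlaps Peo1, the mitochondrial DNA helicase gene, on the opposite strand. Whether the counting used strand is not stated in the sources, so reads of the 2 genes cannot be told apart.

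Mrpl41 was at 28.1, 24.0 and 26.8 FPKM in EC and 32.3, 32.8 and 29.97 FPKM in EN. Mrpl38 was at 36.6, 34.8 and 31.3 FPKM in EC and 41.5, 42.1 and 38.8 FPKM in EN. In both, the groups did not overlap, but the lowest EN library, replicate 3, came within about 2 FPKM of the highest EC library, replicate 1. They were 1.21-fold and 1.19-fold higher (adjusted p = 0.046 and 0.048, limma with Benjamini-Hochberg adjustment).

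Small-subunit transcripts that rose were led by Mrps26 (chr3:123093264-123094927, plus strand), for a protein particular to mitochondria. It was at 23.3, 17.6 and 15.6 FPKM in EC and 34.8, 31.0 and 27.1 FPKM in EN. Its spread within each group was wide, yet the lowest EN library stayed above the highest EC library. The level was 1.64-fold higher, with a log2 change of 0.70 ± 0.15 (SE) and an adjusted p of 0.028 by limma with Benjamini-Hochberg adjustment. Mrps12 (chr1:86920680-86923575, minus strand) encodes a protein of the decoding centre, where codon and anticodon meet. It was at 32.4, 32.8 and 29.9 FPKM in EC and 47.8, 44.0 and 36.9 FPKM in EN. The EC libraries were alike and the EN libraries were spread above them. The level was 1.35-fold higher (log2 change 0.42 ± 0.09 SE, adjusted p = 0.030, limma with Benjamini-Hochberg adjustment). Mrps34, also particular to mitochondria, was at 31.0, 33.6 and 31.4 FPKM in EC and 43.3, 37.8 and 37.5 FPKM in EN. The groups did not overlap, and the level was 1.24-fold higher (log2 change 0.29, adjusted p = 0.030, limma with Benjamini-Hochberg adjustment).

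Of the transcripts that fell, 3 encode proteins with a bacterial homologue. Mrps14 (chr13:77940454-77946201, plus strand) was at 25.8, 27.9 and 27.2 FPKM in EC and 23.2, 22.9 and 23.0 FPKM in EN. The 3 EN libraries were nearly identical and all below EC. The level was 1.17-fold higher in EC, with a log2 change of -0.22 ± 0.04 (SE) and an adjusted p of 0.025 by limma with Benjamini-Hochberg adjustment. Mrpl32 (chr17:53102534-53105400, plus strand), whose protein is matured by the m-AAA protease of the inner membrane, was at 30.5, 33.2 and 29.4 FPKM in EC and 26.9, 27.3 and 25.8 FPKM in EN. Mrps6 (chr11:32211115-32263899, plus strand) was at 97.8, 97.7 and 89.8 FPKM in EC and 80.1, 84.5 and 86.2 FPKM in EN. In both the groups were apart by a few FPKM. They were 1.17-fold and 1.14-fold higher in EC (adjusted p = 0.046 and 0.049, limma with Benjamini-Hochberg adjustment).

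Mrpl39 (chr11:24181658-24199968, minus strand) encodes a protein particular to mitochondria that resembles a threonyl-tRNA synthetase. It was at 16.6, 19.1 and 18.4 FPKM in EC and 13.6, 15.7 and 14.6 FPKM in EN. Its highest EN library lay below its lowest EC library by less than 1 FPKM. The level was 1.23-fold higher in EC, the largest decrease among the 4 (log2 change -0.28 ± 0.07 SE, adjusted p = 0.045, limma with Benjamini-Hochberg adjustment).

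**Figure D3:**
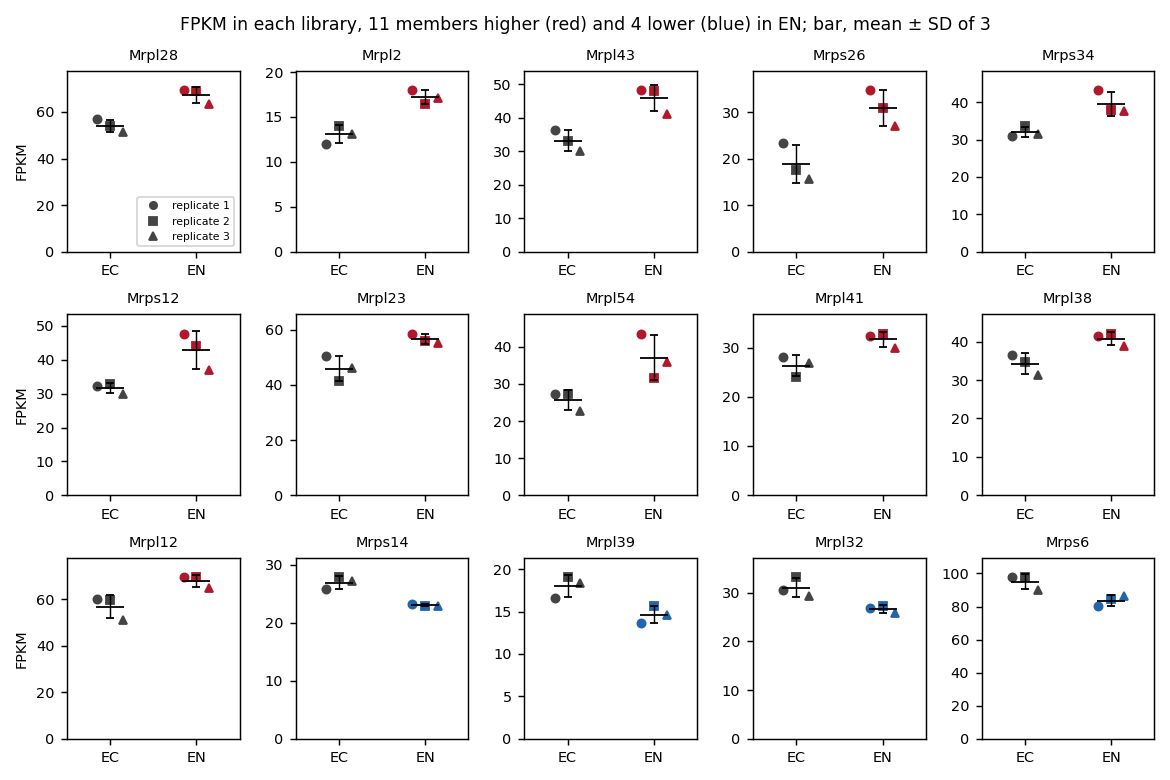
FPKM in each library of the 15 transcripts that passed the test, each panel from 0, with the mean and SD of 3 libraries as a bar. The groups do not overlap in any panel, and EN replicate 3 (triangle) is the EN library nearest to EC in 9 of the 11 transcripts that were higher.

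The libraries did not contribute evenly to these calls. Judged by a chi-square of their read numbers over genes, divided by its degrees of freedom, EN replicate 3 stood at 10.1 and 7.18 from EN replicates 1 and 2, which were 4.08 apart, and the EC libraries were 4.09 to 6.03 apart. In the 11 higher transcripts, EN replicate 1 was the highest EN library in 9 and EN replicate 3 the lowest in 9, while EC replicate 1 was the EC library nearest to EN in 8. With 1 library left out the sign of the change held in 15 of 15 transcripts in each of the 6 fits, but none passed in all. Mrpl2 passed in 3 of these fits, Mrpl54 and Mrpl32 in 0, and each of the others in 1 or 2. Without EC replicate 1, 8 members were higher and 3 lower, and without EN replicate 3, 13 were higher and 2 lower. Without EC replicate 2, 2 were higher and 0 lower. These counts include members that did not pass with all 6 libraries. Mrpl27, Mrpl30, Mrpl42, Mrpl51, Mrps7, Mrps9 and Mrps21 each passed in 1 left-out fit only. In the 3 fits that lacked EC replicate 3, or one of EN replicates 1 and 2, 0 members passed in either direction (408, 446 and 344 genes of the whole table passed there). The number of genes past the test over the whole table moved too, from 1754 to 1616 without EC replicate 1, to 2059 without EN replicate 3 and to 338 without EC replicate 2.

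Across the 6 left-out fits, the largest adjusted p by limma with Benjamini-Hochberg adjustment was 0.069 for Mrpl2, without EC replicate 3. It was 0.071 for Mrpl28 and 0.075 for Mrpl43, both without EN replicate 2. For Mrps26 and Mrps14 it was 0.095 and 0.094, both without EC replicate 2. The other 10 members past the test reached 0.0999 (Mrps34) to 0.157 (Mrps6).

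**Figure D4:**
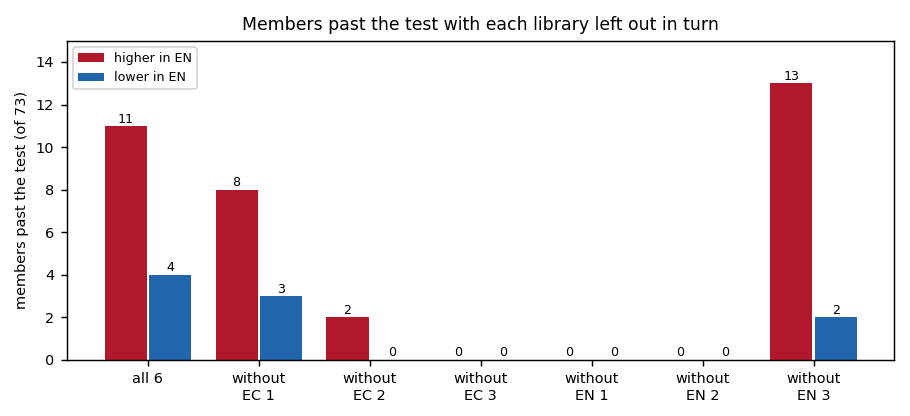
Number of the 73 transcripts past the test, higher (red) and lower (blue) in EN, with all 6 libraries and with each library left out. The count fell to 0 in both directions in 3 of the 6 fits and was 13 higher and 2 lower without EN replicate 3.

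The summed level of the family differed little between the groups. The large-subunit transcripts summed to 1458, 1511 and 1417 FPKM in EC and 1539, 1518 and 1470 FPKM in EN, a ratio of means of 1.03. The small-subunit transcripts summed to 734, 729 and 699 FPKM in EC and 768, 758 and 721 FPKM in EN, a ratio of 1.04. The groups overlapped in both sums. Mrpl33, the most abundant member, had all its EN values below its EC values, so a sum without it leans toward EN. Without Mrpl33 the large-subunit sum was 1167, 1179 and 1097 FPKM in EC and 1249, 1230 and 1211 FPKM in EN, a ratio of 1.07 with no overlap. The ratio of the large-subunit to the small-subunit sum was 2.03 ± 0.04 in EC and 2.02 ± 0.02 in EN (SD, n = 3). Without Mrpl33 it was 1.59 ± 0.03 in EC and 1.64 ± 0.03 in EN (SD, n = 3), with 1.588, 1.618 and 1.568 in EC and 1.627, 1.623 and 1.681 in EN. The groups did not overlap, by a narrow margin between replicates 2. The large-subunit sums of EC replicate 2 include 29.8 FPKM of Mrpl53, which was at 0.168 to 2.22 FPKM in every other library.

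Both kinds of protein were found on each side of the change. The grouping by bacterial homologue was written down after the values were seen. Of 42 tested members with a bacterial homologue, 5 were higher (11.9%) and 3 lower (7.14%), with a median log2 change of 0.10. Of 29 members particular to mitochondria, 6 were higher (20.7%) and 1 lower (3.45%), with a median of 0.03. Over all genes tested, 7.24% were higher and 7.14% lower, and the difference between the classes was not tested. Mrpl55 and Mrps36 were left unclassified.

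The member rows lay on 18 chromosomes. On chromosome 10, singled out after the values were seen, 4 of 11 members were higher (Mrpl28, Mrpl12, Mrpl38 and Mrps34) and 0 lower. The 1036 tested genes of that chromosome also leaned upward, with 103 higher and 35 lower and a median log2 change of 0.04. Of the 11 tested members whose model overlaps another gene model, Mrpl43 alone passed (9.09%), against 14.4% of all genes tested. Of the 62 tested members with no overlapping model 14 passed (22.6%), and the difference was not tested.

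Transcripts for proteins of the mitochondrial ribosome under other names showed no change past the test, with 0 of 6 higher or lower. Aurkaip1, also on that list, was not found among the gene models. Dap3, a small-subunit protein with a nucleotide-binding fold, had a log2 change of 0.09. Ptcd3, which carries pentatricopeptide repeats, was at 21.9, 22.6 and 24.2 FPKM in EC and 19.3, 20.7 and 21.6 FPKM in EN. Its EN values all lay below its EC values without passing (log2 change -0.15, adjusted p = 0.13, limma with Benjamini-Hochberg adjustment). Gadd45gip1, a large-subunit protein near the tunnel exit, lay above in all 3 EN libraries without passing (0.14, adjusted p = 0.091, limma with Benjamini-Hochberg adjustment). Chchd1, Ict1 (a peptidyl-tRNA hydrolase built into the large subunit) and Mrp63 had log2 changes of -0.03, -0.0002 and 0.02. In these 6, 2 had an unadjusted p under 0.05 (32.3% of all genes tested), and voom on whole reads called 0. Of the 3 genes spelled in lower case, mrpl11 was higher, at 25.9, 22.5 and 23.4 FPKM in EC and 31.3, 28.3 and 29.3 FPKM in EN (log2 change 0.30, adjusted p = 0.029, limma with Benjamini-Hochberg adjustment). For mrpl9 and mrpl24 the log2 changes were -0.01 and 0.08 and did not pass.

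Genes that build the particle or work with it passed in no case. By limma, 0 of 25 ribosome assembly factors tested were higher or lower (3 had an unadjusted p under 0.05), with a median log2 change of 0.04. The counts were 0 of 16 for translation factors (3 at an unadjusted p under 0.05; median 0.01) and 0 of 19 for mitochondrial aminoacyl-tRNA synthetases (6 at an unadjusted p under 0.05; median 0.06). Over all genes tested, 14.4% passed the test and 32.3% had an unadjusted p under 0.05. With voom on whole reads, 1 assembly factor, 0 translation factors and 2 synthetases were higher and 0 of each were lower. With array weights, 3, 3 and 1 were higher and 1, 1 and 1 lower. Over all 12198 genes tested, voom called 1387 higher and 960 lower, and array weights 1928 higher and 1921 lower.

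Among 12 tested genes of mitochondrial transcription and biogenesis, 1 was higher and 2 lower. Esrra, the oestrogen-related receptor alpha, was at 33.1, 30.5 and 31.4 FPKM in EC and 46.4, 42.8 and 42.8 FPKM in EN. All 3 EN libraries lay well above EC, at 1.39-fold (log2 change 0.46 ± 0.05 SE, adjusted p = 0.0052, limma with Benjamini-Hochberg adjustment). It passed in each of the 6 fits with a library left out, where the adjusted p was at most 0.032. Its model overlaps Trmt112 on the opposite strand and another model on the same strand, so reads shared with them cannot be told apart. Gabpa, the DNA-binding subunit of GABP, was at 22.9, 24.2 and 24.2 FPKM in EC and 21.1, 21.0 and 20.8 FPKM in EN. It was lower (log2 change -0.17, adjusted p = 0.040, limma with Benjamini-Hochberg adjustment), and its model overlaps Atp5j on the opposite strand and Jam2 on the same strand. Also lower was Mterf, a mitochondrial transcription termination factor (-0.33, adjusted p = 0.036, by the same test). Gabpa passed without EC replicate 1 only, and Mterf without EC replicate 1 or EN replicate 1 only, with adjusted p of up to 0.136 and 0.121 in the other fits. Nrf1, Yy1 and Tfam had log2 changes of 0.11, 0.07 and -0.001 and did not pass, and the coactivator gene Ppargc1a reached at most 0.0484 FPKM.

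The messenger RNAs that this ribosome translates were examined next. All 13 protein-coding transcripts of the mitochondrial genome had a negative log2 change, with a median of -0.31, except that under quantile normalization Mt-nd2, Mt-co2 and Mt-cox3 came out at 0 and Mt-co1 at 0.06. Of the 13, Mt-nd1 and Mt-nd2, for subunits of complex I, passed the test (15.4%, against 14.4% of all genes tested). Mt-nd1 was at 5433, 6544 and 6282 FPKM in EC and 4002, 4297 and 5029 FPKM in EN, and no EN library reached the lowest EC library. The level was 1.37-fold higher in EC (log2 change -0.46 ± 0.10 SE, adjusted p = 0.032, limma with Benjamini-Hochberg adjustment). Mt-nd2 was 1.30-fold higher in EC (-0.38 ± 0.10 SE, adjusted p = 0.044, by the same test). Both lost the call when any library other than EC replicate 1 or EN replicate 3 was left out, and there the adjusted p reached 0.109 for Mt-nd1 and 0.137 for Mt-nd2. With voom on whole reads 6 of the 13 were lower, as were 960 of all 12198 genes tested.

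Mt-atp6, for a subunit of the ATP synthase, also had all its EN values below EC (log2 change -0.32, adjusted p = 0.058, limma with Benjamini-Hochberg adjustment). The other 10, Mt-nd3, Mt-nd4, Mt-nd4l, Mt-nd5, Mt-nd6, Mt-co1, Mt-co2, Mt-cox3, Mt-atp8 and Mt-cytb, overlapped between groups, with log2 changes from -0.38 (Mt-co2) to -0.19 (Mt-co1). EN replicate 3 was the EN library with the highest mitochondrial share of reads, 5.50%, and overlapped the lowest EC share, 5.43%. The 2 mitochondrial ribosomal RNAs were at 200 and 211 FPKM on average and did not pass. Their log2 changes were -0.32 and -0.16, with overlapping groups. Both lay far below the median of 5016 FPKM of the 13 messenger RNAs, and whether these rows reflect the amount of ribosomal RNA was not tested. With mitochondrial reads left out of the scale, 7 large-subunit transcripts were higher and 2 lower and 3 small-subunit transcripts were higher and 2 lower, against 8, 2, 3 and 2 with them.

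**Figure D5:**
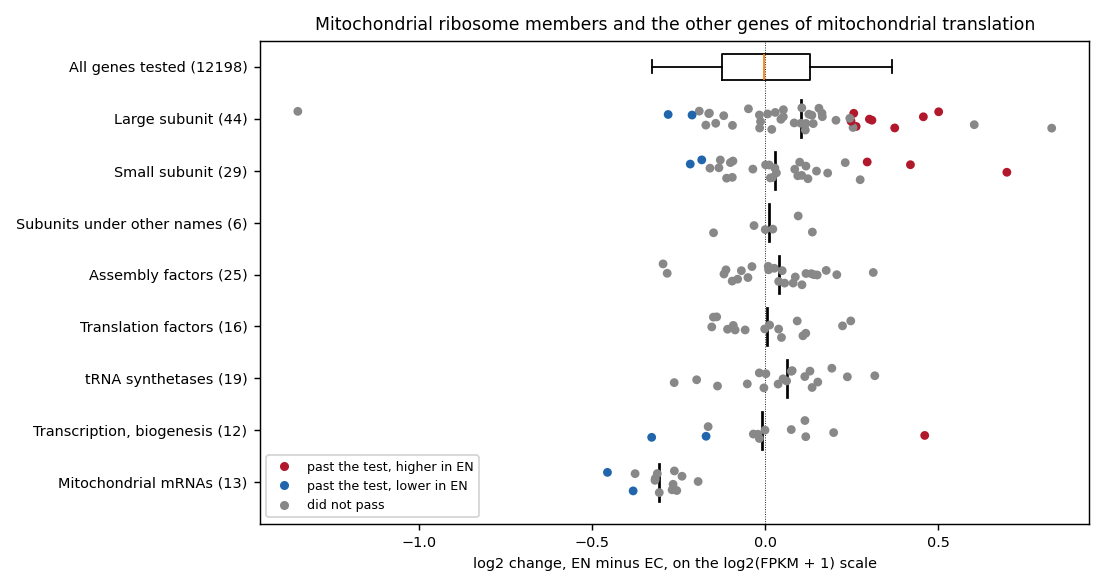
Log2 change, EN minus EC on the log2(FPKM + 1) scale, of each tested gene of the mitochondrial ribosome and of related lists, with the median of each list as a black bar. The box for all 12198 genes spans the quartiles and its whiskers the 5th and 95th percentiles; the 13 mitochondrial mRNAs lie left of 0, and calls among nuclear genes occur in both subunits and in transcription and biogenesis.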

How the data were processed

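The authors deposited 1 table of FPKM for 33350 gene models (read numbers scaled to model length and library size), with symbol, coordinates, length and biotype. Alignment with HISAT2 2.0.5 to Rnor_6.0 is per the submitters' processing notes. The counting tool, annotation release, strand setting and filters are not stated in the sources. Libraries were made with a TruSeq kit from RNA isolated with TRIzol, per the labels' protocols.

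From the deposited FPKM, log2(FPKM + 1) was computed and fitted for those 12198 genes whose mean reached 1 FPKM (limma 3.58.1, R 4.3.3, mean-variance trend, group as the only term, two-sided, Benjamini-Hochberg adjusted p under 0.05). FPKM times length gave whole multiples of 1 step within 0.001 for 100% of non-zero values, so reads were worked back from it, 15296193 to 19626012 per library. Read numbers carry counting error only, and no unique molecules were counted. Gene models without a symbol held 0.829% of reads. Scripts were tested on simulated data.

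Groups and replicate numbers come from the sample titles. The members and lists were chosen with earlier results of these data known. The classes by bacterial homologue, the view of chromosome 10, the motifs searched and the windows printed were chosen after the values were seen, as was the alternative with mitochondrial reads left out of the scale. Named by rule were members past the threshold. For each subunit, so were the 3 with the largest changes in each direction and the 3 highest and 3 lowest. The rule also took up to 4 past the threshold of each related list, all tested subunits under other names and all mitochondrial mRNAs. Other names were chosen after their values were seen. Values of some marker genes are not reported here. Some list entries were found under an earlier name listed by RefSeq. Libraries were compared in pairs by chi-square, and Dixon's check of single values was not made, since it needs at least 4 per group. The change was not tested against promoter base composition, and only 58 of 73 tested members have a window.

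Alternatives were pseudocounts of 0.1 and 0.5, no filter or a minimum mean of 5 FPKM, TPM, median centring, quantile normalization, scaling by total reads, each library's trend with length removed (lowess, span 0.5), voom on the reads, no variance trend, array weights, protein-coding models only, the replicate number as a block, and each library left out.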

Additional observations from a re-analysis of the deposited data

How the results depend on the processing

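The median log2 change stayed positive under all 22 alternatives, from 0.061 to 0.135 for the large and from 0.012 to 0.054 for the small subunit. Counts are given as large higher, large lower, small higher and small lower, against 8, 2, 3 and 2. No filter gave 2, 0, 0 and 1 (866 genes past the test), and no variance trend gave 3, 0, 0 and 1 (1019 genes). Array weights gave 10, 3, 8 and 3 (3849 genes), and voom on whole reads gave 10, 0, 3 and 1 (2347 genes). TPM gave 1 large lower, median centring 1 small lower, and scaling by total reads 0 large lower and 1 small lower. Leaving out a library gave 0 to 7 large higher, 0 to 2 large lower, 0 to 6 small higher, 0 to 2 small lower and 338 to 2059 genes. Why the counts moved was not tested. The remaining alternatives without a block kept these counts within 1.5 times.

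Same-numbered libraries of the 2 groups did not deviate together (correlations 0.088, -0.095 and -0.020). The labels do not say whether equal numbers mark a shared culture, and weak correlations between so few libraries cannot decide it. The replicate block gave 9, 2, 5 and 1, with 1907 genes. The block with the length trend removed gave 8, 3, 3 and 1. 

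Of the named genes not past the test, some changed sign. Ict1 was 0.016 with TPM, 0.0026 with median centring, 0.023 scaled by total reads and 0.024 with voom. Mrpl17 and Mrps33 were -0.028 and -0.019 with the length trend removed, with and without the block, and Mrpl17 was -0.0084 with mitochondrial reads left out. Mt-co1 was 0.057 with quantile normalization and Chchd1 0.027 with array weights. With a library left out, the log2 change ran from -0.062 to 0.051 for Ict1, from -0.101 to 0.062 for Chchd1, from -2.15 to 0.021 for Mrpl53, from -0.041 to 0.060 for Mrpl17 and from -0.097 to 0.168 for Mrp63. Mrpl36, at 1 to 24 reads, and Mrpl53, at 1 to 14 reads outside EC replicate 2, showed no change that was detectable at this depth.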
